A study of Mus musculus with 14 samples.

Results

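The immediate early response genes examined here were Fos, Fosb, Jun, Junb, Jund, Egr1, Ier2, Atf3, Zfp36 and Myc, 10 genes chosen by name. Of these, 6 were analysed in the lactating mouse mammary gland, among 20515 genes with a usable symbol: Fos, Fosb, Egr1, Atf3, Zfp36 and Myc. Jun, Junb, Jund and Ier2 were not analysed here. The tissue came from 2 mice at lactation day 10 (L10), both of the WT_wTbrg4 genotype, in which 1 allele is wild type and on the other a CRISPR-Cas9 deletion fused the Wap super-enhancer and promoter to Tbrg4. Total RNA of each mouse was sequenced as a stranded library, and each gene has an exon value and a separate intron value. Their unit is FPKM (fragments per kilobase, scaled between libraries), made by the authors with the DESeq2 software. Both mice carried the fusion allele and no mouse without it was part of the RNA sequencing analysed here, so the levels describe 1 group of 2 mice and no condition could be tested. The labels name the samples replicate 1 and replicate 2, each taken as 1 mouse, and the ages of the mice were not given in the sources used here.

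Immediate early genes are transcribed within minutes of a growth factor, hormone, stress or cytokine signal, without new protein synthesis, and their mRNAs decay quickly. At many of them serum response factor (SRF) and its ELK and MRTF partners bind CArG boxes in the promoter, while CREB binds the cAMP response element (CRE). The FOS and JUN families dimerise into the AP-1 transcription factor, EGR1 is a zinc finger transcription factor, ATF3 is a stress-induced member of the ATF/CREB family, and MYC drives growth genes as a dimer with MAX. ZFP36 (tristetraprolin) works at the other end of the response: it binds AU-rich elements in 3' UTRs and brings in the deadenylation machinery that shortens the life of those mRNAs. In the mammary gland AP-1 is known for its rise when involution begins, and MYC for the growth of the epithelium in pregnancy.

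The reference promoters of these genes are shown first because a CArG box is uncommon among promoters and was found in 4 of the 10 genes. In the 500 bases upstream of the RefSeq gene start (GRCm38.p6, the patch release of the mm10 build used by the authors), a CArG box was found in 581 of 21000 promoters (2.77%) and in Fos, Fosb, Egr1 and Zfp36, but not in Atf3, Myc, Jun, Junb, Jund or Ier2. Egr1 had 5 such boxes and the other three had 1 each. The 3 stretches printed here run 5′ to 3′ on the strand of the gene, with the CArG box in capitals, and cover chr12:85473556-85473615 (plus strand, positions −334 to −275 from the start) for Fos, chr7:19310283-19310342 (minus strand, −224 to −165) for Fosb and chr7:28379252-28379311 (minus strand, −83 to −24) for Zfp36.
Fos: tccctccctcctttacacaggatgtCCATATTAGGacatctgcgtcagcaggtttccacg
Fosb: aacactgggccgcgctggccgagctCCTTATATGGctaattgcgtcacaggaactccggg
Zfp36: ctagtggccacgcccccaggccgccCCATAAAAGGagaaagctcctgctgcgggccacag
In Fos and Fosb the letters cgtca, the core of a CRE read on the opposite strand, started 17 bases after the first base of the CArG box. The last of the Egr1 boxes had the same spacing. Over all promoters, 5 of the 581 with a CArG box (0.861%) had a CRE core at this distance, and 3 of these 5 were Fos, Fosb and Egr1; this spacing was chosen for counting after the sequences had been seen.

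The complete CRE, TGACGTCA, was found within this window in 2% of promoters and in 1 of the 10 genes, Ier2, at position −45, and so in 0 of the 6 genes with expression values. Its core TGACG, counted on either strand and contained in the complete CRE, was found in 26.1% of promoters and in 8 of the 10 genes, with Zfp36 and Jund as the exceptions. Fos had 4 cores, Fosb, Egr1, Jun and Ier2 had 2 each, and Atf3, Myc and Junb had 1 each. A GC box (GGGCGG on either strand) was found in 41.0% of promoters and in 8 of the 10 genes, most often in Atf3 with 7. The TATA box (TATAAA on the gene's strand) was found in 16.2% of promoters and only in Fos among the 10, at position −33, where a TATA box is known to work. The STAT5 motif TTCNNNGAA, the target of the factor that prolactin activates, was found in 15.1% of promoters and only in Zfp36 among the 10, at position −17. These are matches of letters and not measured binding, and a window without a match says nothing about the factor.

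**Figure D1:**
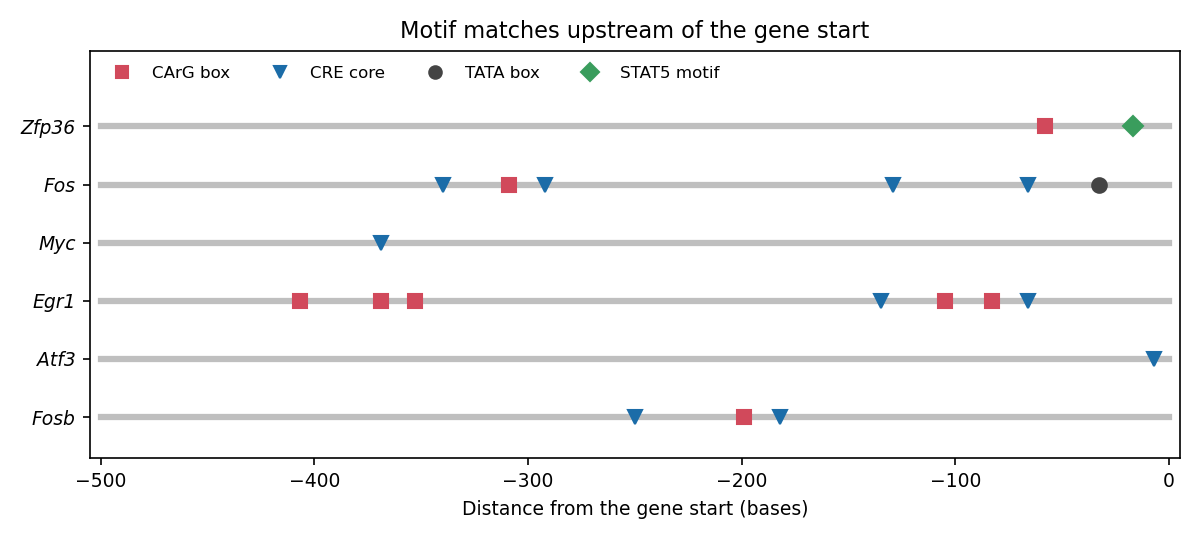
Matches to 4 promoter motifs in the 500 bases upstream of the RefSeq gene start of the 6 genes; the x axis is the distance from the gene start in bases and each symbol marks the first base of a match. CArG boxes stand in Fos, Fosb, Egr1 and Zfp36, and the 5 boxes of Egr1 lie in a distal and a proximal group.

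AU-rich motifs in the 3' UTR, the sequences that ZFP36 and its relatives read, were counted in the same way. The count used 3 nested lengths, written with T for U: the pentamer ATTTA, the heptamer TATTTAT, which contains the pentamer, and the nonamer TTATTTATT, which contains both. The pentamer was in the 3' UTR of 60.5% of 19531 genes and of 9 of the 10 immediate early genes (not Ier2), the heptamer in 24.1% and in 6 of 10, and the nonamer in 6.38% and in 2 of 10, Fos and Zfp36. The strongest match of each of 5 genes is printed with its flanks, because ZFP36 is known to act through AU-rich elements. For Myc it is only the pentamer, which 60.5% of genes carry. Capitals mark the longest of the 3 motifs. The stretches lie at chr12:85477103-85477132 (plus strand) for Fos, chr7:28376950-28376979 (minus) for Zfp36 and chr1:191170337-191170366 (minus) for Atf3. Those of Fosb and Myc lie at chr7:19303325-19303354 (minus) and chr15:61990135-61990164 (plus).
Fos: tgttttcaatTTATTTATTaagatggattc
Zfp36: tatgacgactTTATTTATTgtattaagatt
Atf3: aaaatattactTATTTATcccagtattcct
Fosb: ccacccccagcTATTTATccctttcctggt
Myc: taacagatttgtATTTAattgtttttttaa
Length bears on these counts, since a longer 3' UTR has more room for a match. Among genes whose 3' UTR was within 20% of the length of that of Fos (816 bases), 4.76% had the nonamer, and among those near Zfp36 (774 bases) 4.42% had it. The heptamer was in 28.7% of genes near Atf3 in length (1186 bases) and in 42.6% of those near Fosb (2145 bases). The pentamer was in 92.0% of genes near Fosb in length, 79.1% near Egr1 and near Atf3, 65.3% near Fos, 63.6% near Zfp36 and 46.1% near Myc (453 bases), so that for most of these genes its presence is the usual case at their length. Myc had 2 pentamers and 0 of the longer motifs, as did Egr1 in 1188 bases. Fos carried 4 pentamers, Zfp36 and Atf3 carried 3 each and Fosb carried 1. The mRNA of Zfp36 holds the motif that its own protein binds.

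**Figure D2:**
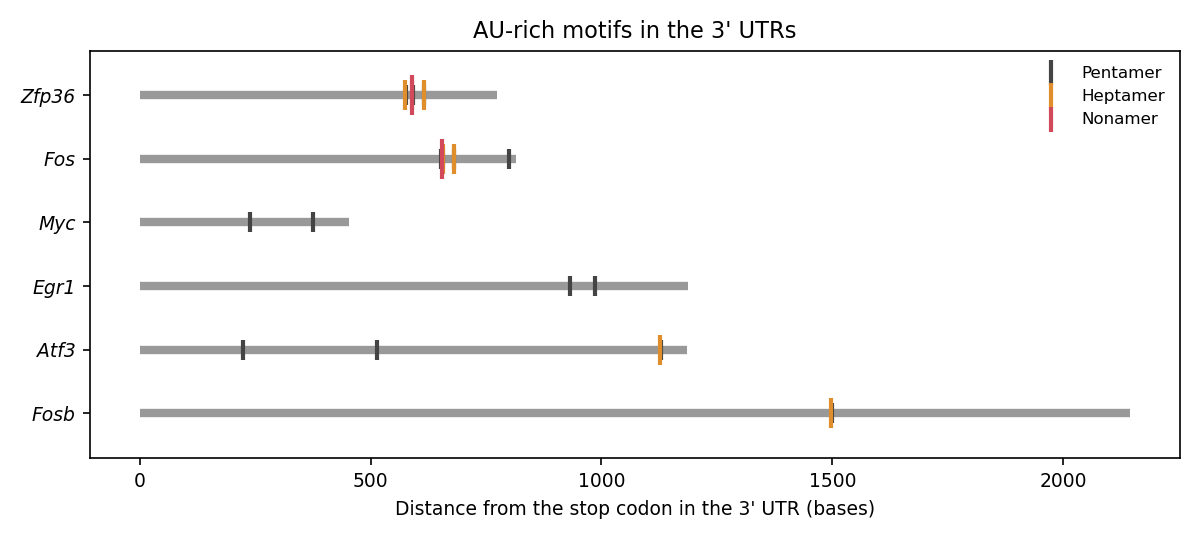
AU-rich motifs along the RefSeq 3' UTRs of the 6 genes; the x axis is the distance from the stop codon in bases, grey bars are the 3' UTRs and ticks are motif starts, with a longer motif drawn over the shorter ones it contains. The nonamers of Fos and Zfp36 stand at 655 and 589 bases, inside clusters of shorter motifs, and the single heptamer of Fosb stands far from the others at 1498 bases.

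Exon signal of the 6 genes spanned a wide range, with Zfp36 and Fos above the median expressed gene in both mice, Myc close to it and Fosb near the detection step of the files. Zfp36 was the highest. Replicate 1 had 12 exon FPKM and replicate 2 had 14.7, or 13.4 ± 1.91 (SD, n = 2), which placed it at rank 2339 of 20515 genes. Fos was next at 8.6 and 6.3 (7.45 ± 1.63, SD, n = 2, rank 4030). Myc stood at 5.7 and 6.3 (6 ± 0.424, SD, n = 2, rank 4756). Over all genes the median exon FPKM was 0.75, and over the 9845 genes that averaged 1 or more it was 5.7, so Zfp36 and Fos exceeded the typical expressed gene in both mice and Myc matched or exceeded it. Egr1 was lower, at 1.4 and 1.7 (1.55 ± 0.212, SD, n = 2), which put it above 56.7% of all genes but above only 9.87% of the expressed ones. Atf3 was listed at 0.8 in both mice and Fosb at 0.3 and 0.2 (0.25 ± 0.0707, SD, n = 2). Fosb was thus present in both mice at 2 or 3 steps of the 0.1 that separates neighbouring values in the files.

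The order Zfp36, then Fos and Myc, then Egr1, Atf3 and Fosb held in each mouse, but the neighbours Fos and Myc were not separated. In replicate 1 Fos was 1.51 times Myc, and equal to it in replicate 2, where both stood at 6.3. Zfp36 was 1.40 times Fos in replicate 1, the ratio in replicate 2 was 2.33, and the values of these genes did not overlap. Egr1 exceeded Atf3 by 1.75 and 2.13 times, and Atf3 exceeded Fosb by 2.67 and 4 times, with rounding bounds on the last ratios of 2.14 to 3.40 and 3 to 5.67. The 2 members of the Fos family stood far apart: Fos was 28.7 times Fosb in replicate 1 (24.4 to 34.6 by rounding) and 31.5 times in replicate 2 (25 to 42.3). The 6 genes summed to 28.8 exon FPKM in replicate 1 and 30 in replicate 2. In bulk tissue, a level set by a few cells with much of an mRNA and a level set by many cells with little of it cannot be told apart, and neither can fewer cells of a type and less RNA per cell.

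**Figure D3:**
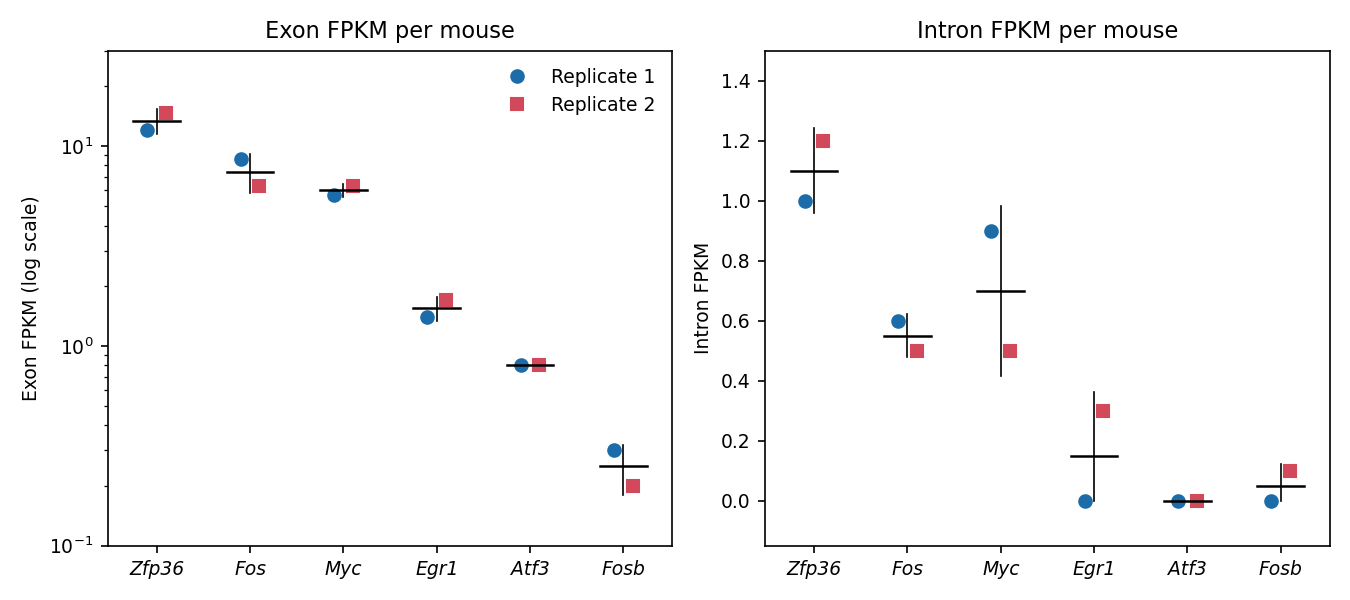
Exon FPKM (left, log scale) and intron FPKM (right, linear scale) of the 6 genes in each of the 2 mice; horizontal lines are means and vertical lines are SD (n = 2), drawn no lower than 0. Exon levels fall from Zfp36 at 13.4 to Fosb at 0.25, Fos and Myc share the value 6.3 in replicate 2, and the intron values of Zfp36 are the highest in both mice.

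The positions and exon structure of the genes are those of RefSeq on GRCm38. Zfp36 lies at chromosome 7, 28376784 to 28379228 on the minus strand, with 1 intron of 680 bases beside 1765 bases of exon. Fosb lies on the same chromosome at 19302696 to 19310118 (minus strand, 3 introns). Fos is at chromosome 12, 85473890 to 85477274 (plus strand, 3 introns of 1276 bases in all), and Myc at chromosome 15, 61985341 to 61990361 (plus strand, 2 introns of 2622 bases in all). Atf3 spans chromosome 1, 191170296 to 191183333 (minus strand), with 11061 intron bases, the most of the 6. Egr1 has 1 intron of 678 bases and lies on chromosome 18 at 34861207 to 34864956 on the plus strand. The coding sequence of each of the 6 aligned to 0 other places in the genome at 95% identity over at least 50% of its length. The 4 genes not analysed share a structure: Jun, Junb, Jund and Ier2 each have 1 exon and 0 introns in RefSeq. Among RefSeq protein-coding genes 30 of 2150 with no intron (1.40%) were among those analysed, against 18280 of 18850 with an intron (97.0%). For the AP-1 factor, then, these values cover FOS family members and no JUN family member.

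Intron signal, which comes mainly from unspliced RNA, was detected in both mice for Zfp36, Fos and Myc. Intron FPKM was 1.0 and 1.2 for Zfp36 (1.1 ± 0.141, SD, n = 2), 0.6 and 0.5 for Fos (0.55 ± 0.0707) and 0.9 and 0.5 for Myc (0.7 ± 0.283). Intron FPKM averaged above 0 in 56.1% of all genes, and by this measure Zfp36 stood at percentile 93.7, Myc at 87.3 and Fos at 82.6. These 3 genes ranked higher among all genes by intron signal than by exon signal, where their percentiles were 88.6, 76.8 and 80.3. Egr1 introns were listed at 0.0 in replicate 1 and 0.3 in replicate 2, and Fosb introns at 0.0 and 0.1. Atf3 introns, the longest of the set, were listed at 0.0 in both mice. The intron values of the 6 genes summed to 2.5 in replicate 1 and 2.6 in replicate 2.

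Relative to exons, intron signal of Fos and Zfp36 was that of a typical gene. It was 6.98% and 7.94% of the exon FPKM for Fos and 8.33% and 8.16% for Zfp36. On the log2 scale with 0.1 added to each value, the mean intron-to-exon ratio over the mice was −3.54 for Fos and −3.49 for Zfp36, beside a median of −3.52 over 9535 genes, at percentiles 49.2 and 51.2. Myc was at 15.8% in replicate 1 (14.8 to 16.8 by rounding) and 7.94% in replicate 2, where it equalled Fos. Over the mice the log2 ratio of Myc was −2.93, above the median at percentile 70.9, and that of Egr1 was −2.72, at percentile 77.3. Egr1 stood at 0% and 17.6% (14.3 to 21.2 by rounding), and its log2 ratio of −3.91 in replicate 1 and −2.17 in replicate 2 rests on intron values of at most 3 steps of the files.

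The 4 genes of the set that could be compared lay within 2-fold between the mice on the FPKM scale, as did most genes. Over the 9845 genes that averaged 1 exon FPKM or more, 581 (5.9%) differed by more than 2-fold between the mice on the scale of exon FPKM + 1, with 475 (4.82%) lower and 106 (1.08%) higher in replicate 2. Of the 6 immediate early genes 4 passed this filter, Atf3 and Fosb did not, and 0 of the 4 differed by more than 2-fold. The log2 ratio of replicate 2 over replicate 1 was 0.27 for Zfp36, 0.17 for Egr1, 0.12 for Myc and −0.40 for Fos, with a median of 0.15 beside −0.08 over all genes compared. Rounding of the files leaves 0.11 to 0.23 for Egr1 and −0.41 to −0.38 for Fos. Fos was the lower and the other three were the higher in replicate 2 on the FPKM scale, a direction that depends on the scaling: with each mouse rescaled to the same summed exon FPKM, the ratios of Zfp36, Egr1 and Myc became −0.71, −0.44 and −0.76 and that of Fos −1.29, while the median of all genes moved to −0.90 and 42.6% of all genes were past 2-fold. Fos was below the median of all genes and the other three above it under both scales.

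Exon GC content moved with the difference between the mice. Across 9839 genes the log2 ratio fell with exon GC content (Spearman's rho −0.66 as a description across genes, which share the same 2 libraries). The exons of the 4 genes had 51.9% (Fos) to 53.9% (Zfp36) GC, above the median of 50.2%. After a lowess fit on GC content was subtracted, the ratios were 0.57 for Zfp36, 0.46 for Egr1, 0.41 for Myc and −0.23 for Fos. Under this correction 188 genes (1.91%) differed by more than 2-fold, and 0 of these 4 did.

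**Figure D4:**
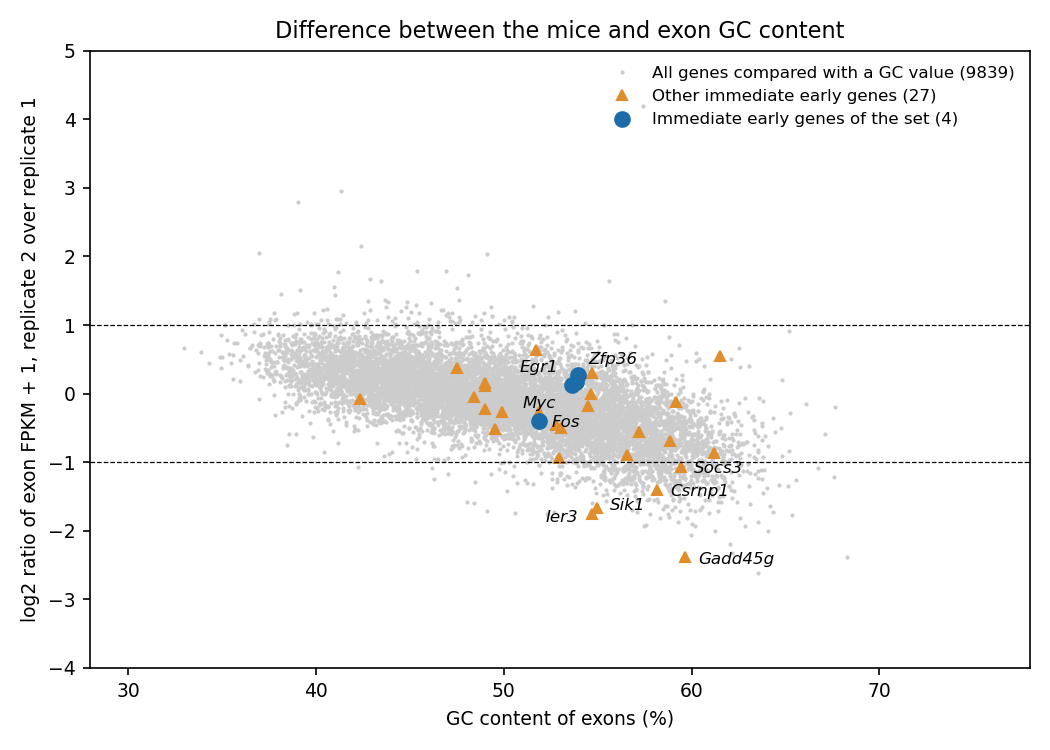
Log2 ratio of exon FPKM + 1 between the mice (replicate 2 over replicate 1, y axis) against GC content of exons in percent (x axis) for 9839 genes, with dashed lines at 2-fold. The cloud slopes downward, Zfp36, Egr1 and Myc lie on its upper side near 54% GC, and 5 of the 27 other immediate early genes lie below the lower line.

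A wider list of 42 other immediate early genes held members past 2-fold, all lower in replicate 2; its difference from the set was not tested. Of these 38 were analysed, 27 passed the filter on low values, 11 did not, and Fosl1, a FOS relative, was listed at 0 in both mice. Among the 27, 5 were more than 2-fold lower in replicate 2 (18.5%, beside 4.82% of all genes compared) and 0 were more than 2-fold higher (beside 1.08%). Of the 27 genes 20 were lower, 6 higher and 1 equal, and the median log2 ratio was −0.27, beside −0.08 over all genes compared. The exon FPKM of the 38 summed to 296.8 in replicate 1 and 202.9 in replicate 2. The 5 genes were Gadd45g, Ier3, Sik1, Csrnp1 and Socs3.

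Gadd45g, a growth arrest and stress gene, had 18.4 exon FPKM in replicate 1 and 2.7 in replicate 2, a log2 ratio of −2.39. Ier3, an anti-apoptotic early response gene, had 32.7 and 9.0 (−1.75). Sik1, a kinase induced by cAMP that restrains CREB coactivators, had 10.8 and 2.7 (−1.67). These 3 were the genes of the list farthest below the diagonal in exon signal. Csrnp1, a nuclear protein induced by AXIN1, had 9.6 and 3.0 (−1.41), and Socs3, a feedback inhibitor of cytokine signalling, had 3.4 and 1.1 (−1.07). Intron FPKM was lower in replicate 2 for all 5, from 2.6 to 0.0 for Gadd45g, 0.9 to 0.0 for Ier3, 2.2 to 0.3 for Sik1, 1.3 to 0.6 for Csrnp1 and 0.4 to 0.0 for Socs3. The intron values of the 5 thus summed to 7.4 in replicate 1 and 0.9 in replicate 2, while those of the 22 genes within 2-fold summed to 24.5 and 24.9. Over all genes compared, intron FPKM was lower in replicate 2 for 33.1%, and 3073 of 9845 had equal values. These 5 genes were picked for lower exon signal in the same 2 libraries, and exon and intron values share each library. Their lower intron signal is therefore not independent of that choice. The share with lower intron signal among all genes past the same fold was not counted. The intron sums of the 6 immediate early genes of the set were within 0.1 of each other, but single genes moved in both directions. Intron FPKM was lower in replicate 2 for 2 of the 6 (Fos and Myc), higher for 3 and equal for 1.

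The exons of these 5 genes had 54.7% (Ier3) to 59.7% (Gadd45g) GC, on the side where replicate 2 was lower in all genes. After the GC correction Gadd45g (−1.66), Ier3 (−1.40) and Sik1 (−1.30) stayed past 2-fold, Csrnp1 (−0.78) and Socs3 (−0.36) did not, and Klf2, a shear-responsive transcription factor at 1.8 and 3.1 exon FPKM, passed it in the other direction (1.39). The median of the list was then −0.10. Summed markers of 4 of 5 other cell types were also lower in replicate 2: 6 macrophage markers summed to 87.8 and 45.5 exon FPKM, each of them lower, and 7 myoepithelial markers to 124.6 and 76.1, with Acta2 listed at 0 in both mice, 4 of the 6 compared lower and 2 (Oxtr and Trp63) higher. Endothelial markers summed to 55.9 and 45.9, with 4 of the 5 compared lower and 1 higher. Fibroblast markers summed to 172.8 and 165.8, but 3 were lower and 3 higher, so they shared no direction. Adipocyte markers, the exception, summed to 657.2 and 743.9, with 2 lower and 4 higher. The part of cell composition in these differences was not tested.

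**Figure D5:**
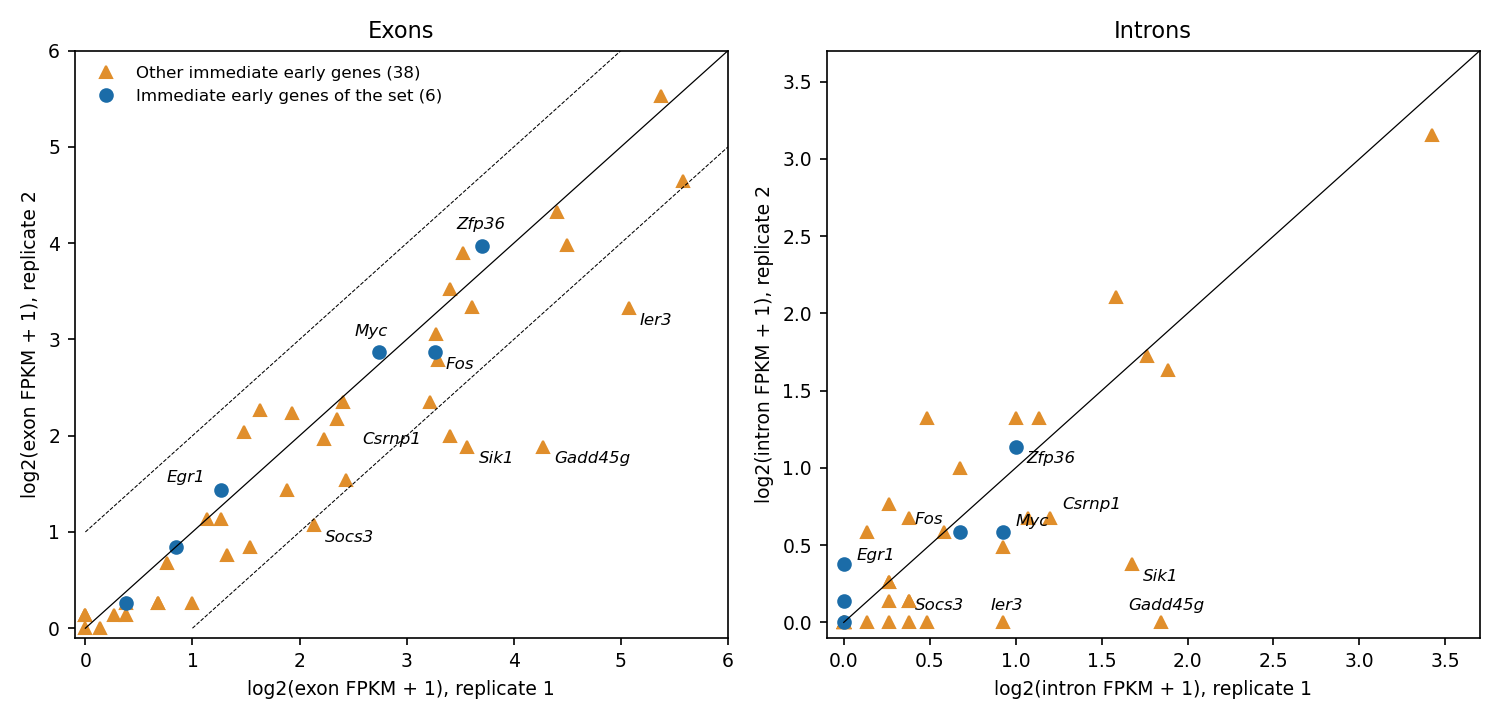
Exon (left) and intron (right) signal in the 2 mice as log2(FPKM + 1) for the 6 immediate early genes of the set and 38 other immediate early genes; solid lines mark equal values and dashed lines 2-fold. Zfp36, Myc, Egr1 and Fos lie within the dashed lines, and Gadd45g, Ier3, Sik1, Csrnp1 and Socs3 lie below the lower one and also below the solid line for introns.

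Of 16 listed factors 7 could be compared, and their median log2 ratio was −0.08. Of the 7, 1 (Csrnp1) was past 2-fold (14.3%, beside 5.9% of all genes compared). Klf6, a Krüppel-like factor, was the highest at 20.2 and 19.1 exon FPKM, above Zfp36 in both mice. Csrnp1 and then Klf10, a TGF-β-inducible factor, at 4.3 and 4.1, followed. Fosl2, the other FOS relative with signal and named after its values were seen, had 3.7 and 2.9, which placed it between Fos and Fosb. Of 26 genes with other functions 20 could be compared, with a median of −0.48 and 4 past 2-fold (20%, beside 5.9%). Mcl1, an anti-apoptotic BCL2 relative with a short-lived protein, was the highest at 40.4 and 45.3, followed by Nfkbia, the NF-κB inhibitor, at 46.9 and 24.0 and by Ier3. The difference between these groups of genes was not tested.

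The kinases and factors upstream of the response were expressed at moderate, similar levels. Of 16 listed regulators 15 were compared, and 0 were past 2-fold, beside 5.9% of all genes compared. In replicate 2, 4 were lower and 11 higher. The median log2 ratio was 0.17 (−0.02 after the GC correction), beside −0.08 over all genes compared. The ribosomal S6 kinase gene Rps6ka1 had 24.3 and 12.5 exon FPKM, and Mapk9, which encodes JNK2, had 10.7 and 12.2. Srf itself, named after its values were seen, had 4.8 and 2.3. Elk1, an SRF partner, was listed at 0 in both mice. Of 14 listed dimer partners and competitors of AP-1 and MYC 10 were compared, with a median of −0.04. Past 2-fold was 1 of the 10 (10%, beside 5.9% of all genes compared). Atf4, a stress-response bZIP factor that can pair with FOS and JUN proteins, was far above the set at 164 and 160. Max, the obligate partner of MYC, had 10.6 and 12.3, above Myc in both mice. Mxd4, which competes with MYC for MAX, had 29.5 and 10.8 and was the 1 partner past 2-fold (log2 ratio −1.37), though not after the GC correction (−0.63).

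Factors that act on AU-rich mRNAs were all detected. All 14 listed genes, Zfp36 among them, passed the filter. Of these 0 differed by more than 2-fold, beside 5.9% of all genes compared. In replicate 2, 1 was lower and 13 were higher. The median log2 ratio was 0.27 (0.20 after the GC correction), beside −0.08 over all genes compared. The direction was tied to the scaling, as for the set itself, because rescaling to equal sums moved the median of all genes to −0.90. Median exon GC content of the 14 genes was 44.5%, below the 50.2% of all genes compared. Genes with less GC tended to be the higher ones in replicate 2. Pabpc1, the poly(A) binding protein, was the highest at 28.6 and 47.4 exon FPKM. Zfp36 came next, followed by Cnot1, the scaffold of the deadenylase complex that ZFP36 recruits, at 10.6 and 14.3.

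Across the whole table, exon FPKM added up to 852961 in the first mouse and 1788120 in the second, and secretory luminal markers, milk protein genes foremost, made up 353857 and 939692 of it. The 8 markers did not share 1 direction: 5 were higher and 3 lower in replicate 2. Past 2-fold, 3 were higher and 2 lower, beside 1.08% and 4.82% of all genes compared. The 2 lower ones were Krt8 at 31.4 and 14.6 and Krt18 at 145 and 57.6. Tbrg4, the gene of the fusion allele, stood at 314.7 and 291.5 exon FPKM and Wap at 172935 and 234774. The depth of the libraries is unknown, since the files give FPKM and no counts, so no counting interval could be given.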

How the data were processed

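Total RNA from L10 mammary tissue of 2 WT_wTbrg4 mice was sequenced after stranded library preparation. The authors aligned the reads with STAR to mm10, counted reads over collapsed exons and over the introns between them with HTSeq, and deposited exon and intron FPKM values per gene and mouse, made with DESeq2 and rounded to 1 decimal; tool versions were not given in the sources used here. ChIP-seq samples of the series were not used.

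Genes were compared between the mice as log2((replicate 2 + 1)/(replicate 1 + 1)) over genes that averaged 1 exon FPKM or more, and a difference of more than 2-fold was counted. With 1 group of 2 mice, no test was made. A lowess fit (span 30%) on exon GC content, tested on simulated data, was the correction for GC; RefSeq GRCm38.p6 matched 20454 genes (99.7%). Another 35 rows had no usable symbol. Promoters (500 bases) and 3' UTRs were read from the same genome and credited to RefSeq. Other genomic places of the coding sequences were sought with minimap2 2.31. The lowess fit was made with statsmodels 0.14.6 and the plots with matplotlib 3.10.9, in Python 3.11.15 with scipy 1.17.1, pandas 2.3.3 and numpy 2.4.6.

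The genes and lists were chosen with earlier results of these data known. The text names all 10 genes of the set and, of each other list, the 3 with the highest mean exon FPKM, those listed at 0 in both mice and those more than 2-fold apart, plus Tbrg4 and Wap; cell type markers are given as sums, and 1 gene that this rule names is not reported here. Alternatives were the pseudocount, the filter, 4 scalings, the GC correction, the geometric mean and leaving out each mouse.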

Additional observations from a re-analysis of the deposited data

How the results depend on the processing

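Of 97 alternative values, 72 stayed within the tolerance (1 SD for a level or an intron-to-exon ratio, 0.1 for a log2 ratio between the mice or its median, 1.5 times for a count) and 25 did not; 12 of the 25 were ratios of single genes. Rescaling gave 12 of the 25, with each mouse set to the same summed exon FPKM: the mean exon FPKM was then 11.1 for Zfp36, 5.10 for Myc, 1.30 for Egr1 and 0.693 for Atf3, the median log2 ratio was −0.74 for the set and −1.09 for the other immediate early genes, and the number past 2-fold was 1 (Fos) in the set and 16 among the others, while the median of all genes was −0.90 and 42.6% of all genes were past 2-fold, so these counts say nothing particular to either list. Rescaling on the genes outside the 10 highest left Atf3 at 0.800, which is outside its SD only because both mice had the same value. The GC correction gave medians of 0.43 for the set and −0.10 for the others. The number of other immediate early genes past 2-fold was 9 of 27 with a pseudocount of 0.1 (11.2% of all genes) and 2 of 9 with a filter at 10 exon FPKM (7.42%). The alternatives for the count of other immediate early genes, the scalings of their median and the rescaled count for the set were chosen after seeing the data. Leaving out either mouse kept every level and intron-to-exon ratio within 1 SD, which with 2 mice says nothing of stability (Egr1 ran from −3.91 to −2.17 on the log2 scale), and ratios between the mice could not be formed. No paired analysis was possible because the RNA samples form 1 group. Rounding to 1 decimal limits what can be said of Fosb, Atf3 and the introns of Egr1.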
